A study of Mus musculus with 17 samples.

Results

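Focal adhesions are the plaques at which integrins, the cell surface receptors for extracellular matrix, are tied to actin filaments inside the cell. Talin and vinculin carry the pulling force across the plaque, filamins and alpha-actinins crosslink the filaments behind it, non-muscle myosin II contracts them, and paxillin and the zyxin-like LIM proteins dock signaling and repair factors on it. Lung fibroblasts that turn into myofibroblasts are known for large focal adhesions and thick stress fibers, but all of these proteins are also used by macrophages, endothelial cells and epithelial cells.

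The 10 genes examined were Vcl, Zyx, Flna, Actn1, Actn4, Tln1, Pxn, Lpp, Myh9 and Vasp, taken by their symbols from a count table of 55421 genes. No measured value entered the rule, but the genes were chosen with earlier results of these data known. All 10 had a row, and all 10 were among the 10481 genes that passed the filter on low counts (a CPM above 10 in 2 or more libraries, where CPM is the count scaled to a common library total). The counts came from total RNA-Seq of lung cell cultures, passaged 1 time, from 17 Ephb4f/f; Col1a2-CreERT2 mice. Every mouse carried the floxed Ephb4 alleles and the tamoxifen-inducible Cre driven by Col1a2, a collagen gene of fibroblasts. Ephb4 CKO mice received 1 mg of 4-hydroxytamoxifen per day on 5 days at 4 weeks of age, and Ephb4 control mice received corn oil, so deletion and exposure to 4-hydroxytamoxifen cannot be told apart. At 6 weeks of age the mice received 1.2 U/kg bleomycin into the trachea, which damages the lung and leads to scarring, or PBS, and the cells were taken on day 14. The groups were Ephb4 control PBS (4 mice), Ephb4 control bleomycin (4), Ephb4 CKO PBS (5) and Ephb4 CKO bleomycin (4), males and females together.

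The cultures are labelled primary fibroblasts, and no sort was applied. The total count ranged from 66540022 to 120554468 per library (median 93075927). The fibroblast marker score (mean log2 CPM of the 12 of 14 marker genes that passed the filter) was 7.81 to 8.65 in Ephb4 control bleomycin cultures and -0.37 to 7.73 (control PBS), 0.30 to 5.75 (CKO PBS) and 0.01 to 6.54 (CKO bleomycin) in the other groups. The 14 fibroblast markers summed to 6068 to 12499 CPM in control bleomycin cultures and to 15.3 to 7818, 33.9 to 1984 and 17.9 to 1650 CPM in the other groups in the same order, with Tcf21 at 0 in 1 control PBS and 2 CKO PBS libraries and Postn at 0 in 1 CKO PBS library. The 19 macrophage markers, none at 0 in any library, summed to 10972 to 48912 CPM in control PBS, 1433 to 21223 in control bleomycin, 25547 to 43832 in CKO PBS and 25142 to 45777 in CKO bleomycin cultures. Col1a1 averaged 1418 ± 656 CPM (SD, n = 4) in control bleomycin and 54.6 ± 70.2 CPM (SD, n = 4) in CKO bleomycin cultures, and Pdgfra 184 ± 104 and 52.0 ± 72.0 CPM, while Lyz2 averaged 10398 ± 6565 and 23865 ± 10186 CPM and Ptprc 155 ± 107 and 327 ± 32.6 CPM in the same groups. Of the 8 smooth muscle and pericyte markers, 5 passed the filter, and their mean log2 CPM was 6.08 to 6.43 in control bleomycin cultures and -1.44 to 5.09 over the other 3 groups. In such bulk RNA, fewer cells of a type and less RNA per cell cannot be told apart. Ephb4, the targeted gene, was 38.5 ± 21.3 CPM in control bleomycin and 9.64 ± 3.70 CPM in CKO bleomycin cultures (13.1 to 65.1 against 4.93 to 14.0). The adjusted p of Ephb4 for this difference was 0.220 from edgeR. After PBS, Ephb4 was 2.32 to 33.4 CPM in control and 4.01 to 23.6 CPM in CKO cultures (log2 fold change -0.73, SE 0.72). The ranges thus overlapped slightly after bleomycin and widely after PBS, where a loss of Ephb4 RNA was not evident. Genes of the sex chromosomes went against the recorded sex in 3 libraries, control bleomycin mouse 2 and CKO bleomycin mice 1 and 2, and the main values of Vcl, Zyx and Flna, with the genotype differences of Lpp and Actn1, are also given below without them. Whether these 3 libraries were swapped with others was not tested, and a swap would also put their genotype and treatment in doubt.

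Per kilobase of annotated exon, Flna, the gene of the large actin crosslinker filamin A, was the most abundant of the 10, with a median of 197 CPM per kb over the 17 libraries, and it was above Myh9 in 17 of 17. Myh9, the heavy chain of non-muscle myosin IIA, had a median of 84.3 CPM per kb and was above the next gene, Vasp, in 16 of 17 libraries. Vasp, an actin filament elongation factor (47.9 CPM per kb), Tln1, the integrin activator talin 1 (44.8), and Actn1, alpha-actinin 1 (38.1), followed, and these neighbors changed places between libraries, Vasp above Tln1 in 11 and Tln1 above Actn1 in 10. Actn1 was above Actn4, alpha-actinin 4 (21.3 CPM per kb), in 17 of 17 libraries. The lower part of the order was Vcl, vinculin (18.1 CPM per kb), Zyx, zyxin (14.8), Pxn, paxillin (9.24), and Lpp, a zyxin-like LIM protein (6.52). There the order was not stable, since Vcl was above Zyx in only 5 of 17 libraries in spite of its higher median. The genes also differed in how far they varied: the highest library exceeded the lowest by 9.34-fold for Lpp, 8.19-fold for Vcl, 7.17-fold for Zyx and 4.87-fold for Actn1, and by 2.11-fold (Vasp) to 3.23-fold (Flna) for the other 6.

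Vcl, whose protein binds talin and actin, separated the 2 control groups. It spans 20929398 to 21033676 of chromosome 14 (forward strand of build GRCm38, ENSMUSG00000021823). Its CPM was 157, 35.7, 148 and 42.9 in the 4 control PBS cultures and 268, 217, 249 and 292 in the 4 control bleomycin cultures. In the CKO cultures it was 148, 204, 67.0, 74.5 and 72.5 after PBS and 95.4, 219, 59.8 and 50.5 after bleomycin. All 4 control bleomycin cultures were above all 4 control PBS cultures, and 1 CKO bleomycin culture, mouse 2, lay within the control bleomycin range. For bleomycin versus PBS in control mice the log2 fold change was 1.42 (SE 0.56), and edgeR's quasi-likelihood test gave an adjusted p of 0.323. For Ephb4 CKO versus control after bleomycin it was -1.27 (SE 0.56, adjusted p = 0.232 from edgeR), and -1.90 without CKO bleomycin mouse 2.

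The upstream sequence of Vcl is shown because it was the 1 of the 9 genes with an entry in the RefSeq promoter table whose window (250 bases before to 50 after the start) held a CArG box, the motif bound by serum response factor, which answers to the state of actin. Over all 32851 promoters of the table, 535 (1.63%) held that motif. The core hexamer GGAATG, or CATTCC on the other strand, read by the TEAD partners of YAP, was in the windows of Vcl, Flna, Actn4 and Lpp, 4 of 9 genes, and in 4817 of all promoters (14.7%). Counted per promoter, as over the whole table, the 9 genes had 10 windows, 2 of them of Lpp, and the CArG box was in 1 and the hexamer in 4 of the 10. The Flna window and the Lpp window with the hexamer belong to RefSeq starts inside the gene spans given below, not to the outermost starts. Both strands were searched for each motif, and the CArG box and the hexamer of Vcl did not overlap. The first letter of the CArG box lay 227 bases before the Vcl start, and that of the hexamer lay 143 before it. Below, the 250 bases before the Vcl start (chr14:20929148-20929397, forward strand) and 30 bases around the hexamer of Flna (chrX:74246663-74246692, reverse strand), Actn4 (chr7:28962531-28962560, reverse strand) and Lpp (chr16:24721661-24721690, forward strand) are given 5′ to 3′ from RefSeq, GRCm38.p6, with both motifs in capitals. A match of letters is a description and does not show binding.
Vcl: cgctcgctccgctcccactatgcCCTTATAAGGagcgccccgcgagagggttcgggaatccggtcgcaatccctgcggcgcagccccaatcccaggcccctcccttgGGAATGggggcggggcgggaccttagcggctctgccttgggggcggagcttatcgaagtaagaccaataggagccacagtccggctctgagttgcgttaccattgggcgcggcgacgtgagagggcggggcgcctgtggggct
Flna: ggcgttgtggggCATTCCaacgggaggggc
Actn4: tgaatgggaacaCATTCCaccccgaaacag
Lpp: ctggaagtatgtGGAATGgagaaggaagtg

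Zyx, whose protein moves to strained stress fibers and recruits repair factors, had the largest fold change of the 10 genes after bleomycin in control mice. It lies on chromosome 6 from 42349630 to 42360213, forward strand (ENSMUSG00000029860). Its CPM was 72.1, 40.7, 98.8 and 44.2 in control PBS cultures and 292, 194, 158 and 135 in control bleomycin cultures. In CKO cultures it was 80.0, 79.3, 81.9, 64.6 and 57.2 after PBS and 80.9, 145, 47.3 and 41.2 after bleomycin. The control groups did not overlap, the 5 CKO PBS cultures lay close together, and CKO bleomycin mouse 2 again lay within the control bleomycin range. The log2 fold change was 1.61 (SE 0.39, 3.04-fold, adjusted p = 0.268 from edgeR) for bleomycin versus PBS in control mice, the rank 28 of 10481 genes by p. For CKO versus control after bleomycin it was -1.31 (SE 0.39, adjusted p = 0.196 from edgeR). DESeq2, the tool of the study's methods, gave Zyx an adjusted p of 0.0130 and 0.0427 in these comparisons, so that its call depended on the tool. The log2 fold change of CKO versus control after bleomycin was -1.79 without CKO bleomycin mouse 2 and -1.06 without control bleomycin mouse 1, the control culture with the highest Zyx.

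Flna lies on chromosome X from 74223461 to 74249820, reverse strand (ENSMUSG00000031328). Its CPM was 2046, 914, 1591 and 1890 in control PBS and 2786, 2284, 2842 and 2949 in control bleomycin cultures. It was 1638, 2249, 1656, 1943 and 1196 in CKO PBS and 1368, 1854, 1417 and 1841 in CKO bleomycin cultures. The control bleomycin cultures were above every other culture of the series. The log2 fold change was 0.75 (SE 0.25, adjusted p = 0.307 from edgeR) for bleomycin versus PBS in control mice and -0.75 (SE 0.25, adjusted p = 0.210 from edgeR) for CKO versus control after bleomycin. Its fold changes were smaller than those of Vcl and Zyx, and so were their errors. DESeq2 with the 2 sorted runs of table columns as a covariate gave adjusted p-values of 0.0255 and 0.0320 in these comparisons.

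Lpp, which shares zyxin's LIM domains and its place at adhesions, lies on chromosome 16 from 24393507 to 24992578, forward strand (ENSMUSG00000033306). Its CPM was 286, 144, 233 and 45.3 in control PBS and 174, 227, 349 and 424 in control bleomycin cultures. It was 120.7, 350, 134, 137 and 54.4 in CKO PBS and 126, 141, 146 and 80.1 in CKO bleomycin cultures. The CKO bleomycin cultures were all below the control bleomycin cultures, while the 2 control groups overlapped. The log2 fold change was -1.25 (SE 0.55, adjusted p = 0.233 from edgeR) for CKO versus control after bleomycin. For bleomycin versus PBS in control mice it was 0.73 (SE 0.54, adjusted p = 0.525 from edgeR). That value was 0.41 without control PBS mouse 4. It was 0.20 with the number series read from the sample titles (11 or 12) as a covariate.

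The 2 alpha-actinins, which bundle antiparallel actin filaments, did not have the same pattern. Actn1 CPM was 417, 120, 236 and 188 in control PBS, 434, 316, 354 and 337 in control bleomycin, 156, 582, 166, 202 and 157 in CKO PBS and 211, 253, 180 and 176 in CKO bleomycin cultures. All CKO bleomycin values were below the control bleomycin values (log2 fold change -0.81, SE 0.43, adjusted p = 0.279 from edgeR), and the 2 control groups overlapped (0.58, SE 0.43, adjusted p = 0.520 from edgeR). The latter value was 0.38 without control PBS mouse 2, 0.99 without control PBS mouse 1 and 0.024 with the number series as a covariate. Actn4 averaged 116 ± 48.3 CPM in control PBS, 117 ± 13.1 in control bleomycin and 142 ± 24.3 (SD, n = 4 each) in CKO bleomycin cultures. Its log2 fold changes were 0.014 (SE 0.33) after bleomycin in control mice and 0.29 (SE 0.33) for CKO versus control after bleomycin. The genes lie on chromosome 12 from 80167547 to 80260371 (Actn1, ENSMUSG00000015143) and on chromosome 7 from 28893248 to 28962340 (Actn4, ENSMUSG00000054808), both on the reverse strand.

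The other 4 genes had groups that overlapped in both comparisons. Tln1 (chromosome 4 from 43531519 to 43562691, reverse strand, ENSMUSG00000028465) ranged from 264 to 493 CPM in control PBS, 397 to 612 in control bleomycin and 332 to 577 in CKO bleomycin cultures. Myh9 (chromosome 15 from 77760587 to 77842175, reverse strand, ENSMUSG00000022443) ranged from 937 to 1520, 1119 to 1632 and 836 to 1155 CPM in the same groups, with log2 fold changes of 0.33 (SE 0.27) for bleomycin in control mice and -0.49 (SE 0.27) for genotype after bleomycin. Only 1 CKO bleomycin culture, mouse 3, exceeded the lowest control bleomycin culture in Myh9. Pxn (chromosome 5 from 115506676 to 115555987, forward strand, ENSMUSG00000029528), the scaffold of adhesion signaling, had the opposite signs of Vcl and Zyx, -0.37 (SE 0.21) and 0.25 (SE 0.21). Its CPM was 82.9, 74.4, 64.8 and 104 in control PBS and 70.8, 55.1, 63.1 and 63.7 in control bleomycin cultures, and the lowest Pxn of the series, 44.2, was in CKO bleomycin mouse 2. Vasp (chromosome 7 from 19256929 to 19271817, reverse strand, ENSMUSG00000030403) averaged 126 ± 18.4, 123 ± 25.1 and 115 ± 29.8 CPM (SD, n = 4 each) in control PBS, control bleomycin and CKO bleomycin cultures, with log2 fold changes of -0.024 (SE 0.24) and -0.10 (SE 0.24).

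**Figure D1:**
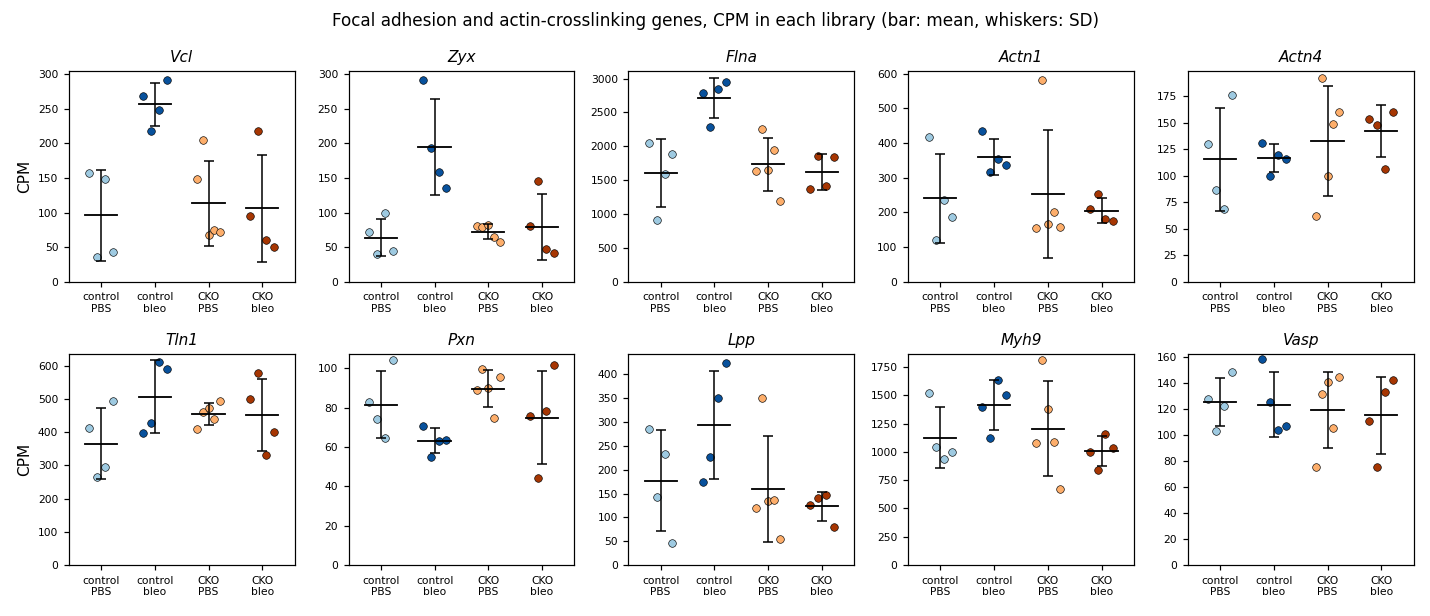
CPM of the 10 genes (vertical axes, linear and starting at 0) in each library of the 4 groups (horizontal axis; bleo, bleomycin); points are libraries, bars means and whiskers SD. The 4 control bleomycin cultures lie above all control PBS cultures in Vcl (217 to 292 CPM), Zyx (135 to 292) and Flna (2284 to 2949), and CKO PBS mouse 2 stands above its group in Actn1 (582) and Lpp (350).

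Whether bleomycin changed these genes in cultures from Ephb4 control mice was tested in edgeR, with p-values adjusted over all 10481 genes. No gene of the 10 had an adjusted p under 0.05 (0.268 to 0.985), and 0 of all 10481 genes (0%) did. By other tools, DESeq2 called 1 (Zyx, with 1.58% of all genes called), and with the column runs as a covariate 2 (Zyx and Flna, with 2.2%). Limma voom with or without sample weights called 0 of the 10, with 0.439% and 0% of all genes called. The fitted log2 fold change was above 0 in 8 of 10 genes and in 44.5% of all genes, with a median of 0.53 over the 10 and of -0.06 over all genes. At an unadjusted p under 0.05, 3 of the 10 were higher after bleomycin (Vcl, Zyx and Flna) and 0 were lower, where 6.28% of all genes were higher at that p. The same 3 genes had all bleomycin cultures above all PBS cultures, as did 5.72% of all genes, and a 2-sided exact permutation test gave each p = 0.0286, the smallest that 4 cultures against 4 allow. The number series was read from the sample titles, each of which holds a number that begins with 11 or 12. Whether this series marks a batch was not tested. In control mice the series nearly matched the treatment, with 4 of 4 bleomycin mice and 1 of 4 PBS mice in series 12. Within the control PBS group the series 12 culture had 157 CPM of Vcl and the series 11 cultures averaged 75.5, and with the series as a covariate the log2 fold change of Vcl was 0.51, that of Zyx 1.14 and that of Flna 0.59, with a median of 0.20 over the 10 genes.

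Whether the genes differed between CKO and control mice was tested after bleomycin and after PBS. Because a loss of Ephb4 RNA was not evident after PBS, the PBS comparison cannot show what Ephb4 deletion does to these genes. CKO cultures averaged 9.64 CPM of Ephb4 after bleomycin and 9.66 CPM after PBS. Control PBS mice 2 and 4, without deletion, had 4.00 and 2.32 CPM, and control PBS mice 1 and 3 had 24.2 and 33.4 CPM. The genotype groups also differed in marker scores after bleomycin, so deletion and culture content cannot be told apart there. After bleomycin, edgeR gave none of the 10 an adjusted p under 0.05 (0.196 to 0.818), and 0% of all genes. DESeq2 called 1 of the 10 (Zyx, with 3.81% of all genes called), and with the column runs 2 (Zyx and Flna, with 3.69%). Limma voom called 0 of the 10 and 0% of all genes. With sample quality weights limma voom called 6 (Vcl, Zyx, Flna, Actn1, Lpp and Myh9), in a fit that called 4651 of all 10481 genes (44.4%). The fitted log2 fold change was below 0 in 8 of 10 genes, the exceptions being Actn4 and Pxn, and in 49.3% of all genes. The median was -0.62 over the 10 and 0.01 over all genes. At an unadjusted p under 0.05, 4 of the 10 were lower in CKO (Vcl, Zyx, Flna and Lpp), against 9.18% of all genes. Flna, Actn1 and Lpp had all CKO cultures below all control cultures, as did 12.2% of all genes. This comparison shares its control bleomycin cultures with the one before it, so the opposite signs in the 2 are not independent of each other. After PBS, CKO and control cultures differed by log2 fold changes of -0.15 (Lpp) to 0.31 (Tln1), with a median of 0.12. There edgeR's adjusted p was 1.00 in all 10 genes, 0 had an unadjusted p under 0.05, and 0% of all genes were called. DESeq2 and limma voom called 0 of the 10 as well.

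In CKO mice, bleomycin and PBS cultures differed by log2 fold changes of -0.37 (Lpp) to 0.12 (Zyx), with a median of -0.10. Without CKO PBS mouse 2 the value of Lpp was 0.15, that of Actn1 moved from -0.30 to 0.27 and the median was 0.078, and without CKO bleomycin mouse 2 the value of Zyx was -0.36. With all libraries edgeR called 0 of the 10 and 0% of all genes, with 0 of the 10 at an unadjusted p under 0.05. The difference between the 2 bleomycin effects was tested as an interaction of genotype and bleomycin. Its estimate was -1.52 (SE 0.77) for Vcl, -1.49 (SE 0.53) for Zyx and -0.85 (SE 0.35) for Flna, with edgeR giving each an adjusted p of 0.916, and the median was -0.72 over the 10 genes. No gene of the 10 and 0% of all genes had an adjusted p under 0.05, and DESeq2 and limma voom called 0 of the 10 both here and in CKO mice. At an unadjusted p under 0.05 Zyx and Flna were below 0, 2 of the 10, against 1.57% of all genes.

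**Figure D2:**
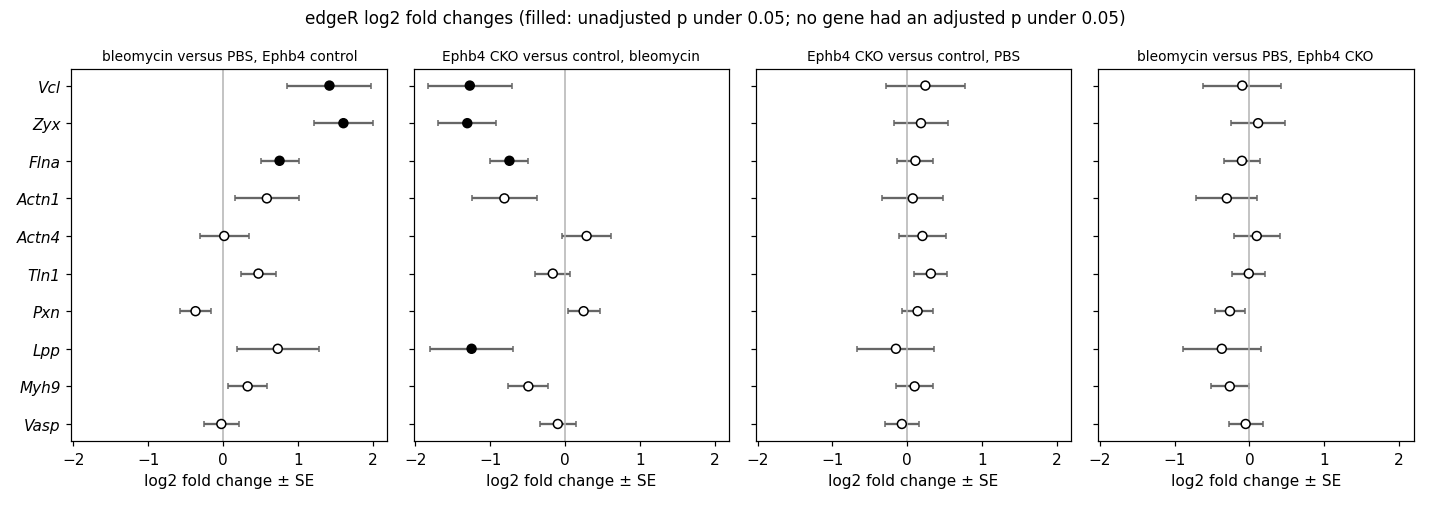
Log2 fold changes (horizontal axes) of the 10 genes (rows) in the 4 comparisons between groups, with SE as bars, from edgeR; filled points have an unadjusted p under 0.05. Filled points are Vcl, Zyx and Flna to the right of 0 for bleomycin in control mice and Vcl, Zyx, Flna and Lpp to the left for CKO versus control after bleomycin.

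Leaving out the 3 libraries of doubtful sex label moved the genotype difference after bleomycin of Vcl to -2.33 and that of Zyx to -2.18 on the log2 scale, while Flna was at -0.85, Lpp at -1.52 and Actn1 at -1.11. The adjusted p of Zyx was then 0.301 in edgeR. Without them the log2 fold changes for bleomycin in control mice were 1.504 (Vcl), 1.62 (Zyx) and 0.85 (Flna), those for bleomycin in CKO mice were -1.09, -0.75 and -0.13, and the interaction estimates were -2.59, -2.37 and -0.97. The CKO bleomycin mice left in these fits were mice 3 and 4, both of series 11. The control bleomycin mice left were 1, 3 and 4, all of series 12, so genotype and series after bleomycin cannot be told apart there. When only mice of series 12 entered (4 control, 2 CKO), the log2 fold changes of CKO versus control after bleomycin were -0.68 (Vcl), -0.76 (Zyx), -0.73 (Flna) and -1.11 (Lpp). Those 2 CKO mice were mice 1 and 2, both of doubtful sex label, as was control bleomycin mouse 2.

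The genes were also read against the marker scores. Over the 17 libraries, in a fit with 1 mean per group, the slope of Zyx on the fibroblast score was 0.16 log2 units per unit of score (SE 0.044, adjusted p = 0.0448 from edgeR), and Zyx was the only gene of the 10 called, where 4.69% of all genes had a called positive slope and 0.868% a called negative one. Vcl had a slope of 0.17 (SE 0.085, adjusted p = 0.268 from edgeR) and Pxn one of -0.075 (SE 0.028, adjusted p = 0.149 from edgeR), while Flna was at -0.016 (SE 0.040). On the macrophage score no gene of the 10 was called by edgeR, with Zyx nearest (-0.37, SE 0.12, adjusted p = 0.0643), against 7.57% of all genes with a called positive slope and 1.64% with a called negative one. At an unadjusted p under 0.05 the fibroblast slopes of Zyx and Pxn and the macrophage slope of Zyx passed. With the fibroblast score as a covariate, the log2 fold change of CKO versus control after bleomycin was -0.63 for Vcl, -0.64 for Zyx, -0.82 for Flna and -1.01 for Lpp, and with the macrophage score it was -0.67, -0.67, -0.59 and -0.88. Under the fibroblast score the values of Vcl, Zyx and Lpp were thus nearer to 0 than without it, and that of Flna was not. Under the macrophage score those of Vcl, Zyx, Flna and Lpp all were. The control and CKO bleomycin groups overlapped neither in the fibroblast score (7.81 to 8.65 against 0.01 to 6.54) nor in the macrophage score (4.33 to 7.99 against 8.28 to 9.02). The values with a covariate thus extend each group beyond its own scores. The part of the smooth muscle and pericyte markers was not tested.

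**Figure D3:**
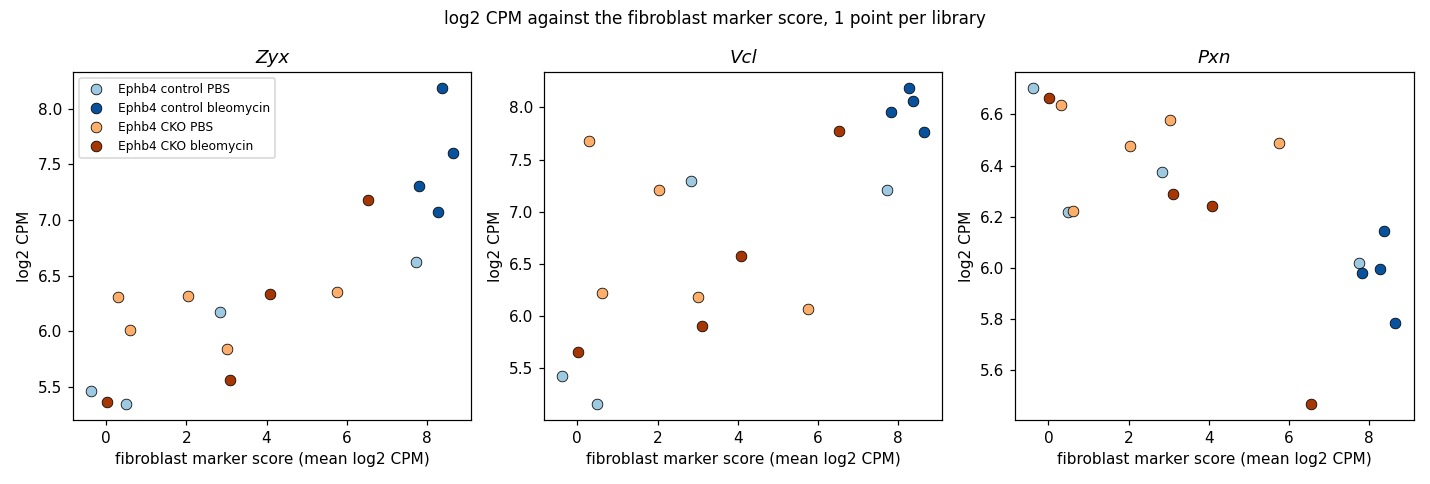
Log2 CPM (vertical axes) of Zyx, Vcl and Pxn against the fibroblast marker score (horizontal axis, mean log2 CPM of 12 markers), 1 point for each of the 17 libraries, colored by group. The control bleomycin cultures sit at scores of 7.81 to 8.65. Nearest to them in score is control PBS mouse 3 (7.735), with 98.8 CPM of Zyx, 148 of Vcl and 64.8 of Pxn. CKO bleomycin mouse 2 (score 6.54) follows with 145 CPM of Zyx, 219 of Vcl and 44.2 of Pxn.

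The 10 genes did not vary as 1 block over the libraries. Vcl and Zyx were the most alike pair, with a Pearson r of 0.877 of log2 CPM over the 17 libraries, and Vcl and Actn1 followed at 0.799. Pxn ran against them, at -0.57 with Vcl and -0.67 with Zyx, and was most alike to Vasp (0.514). Outside the 10, the gene most alike was Ncs1 for Vcl (0.969), Nfib for Lpp (0.946), Tmem132a for Zyx (0.943), Map3k20 for Actn1 (0.936) and Eif4g1 for Flna (0.915). For the rest it was Lrmda for Pxn (0.894), Arhgef18 for Myh9 (0.893), Kat14 for Actn4 (0.882), Ptma for Vasp (0.845) and Dctn1 for Tln1 (0.826). Among the genes most alike to the mean of the 10 standardized genes were Capn2 (0.900), Msto1 (0.895), Trp53 (0.893) and Pop1 (0.891). These values are descriptions, since the libraries share groups, culture content and depth, and each gene was named for its place among the highest of all genes.

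**Figure D4:**
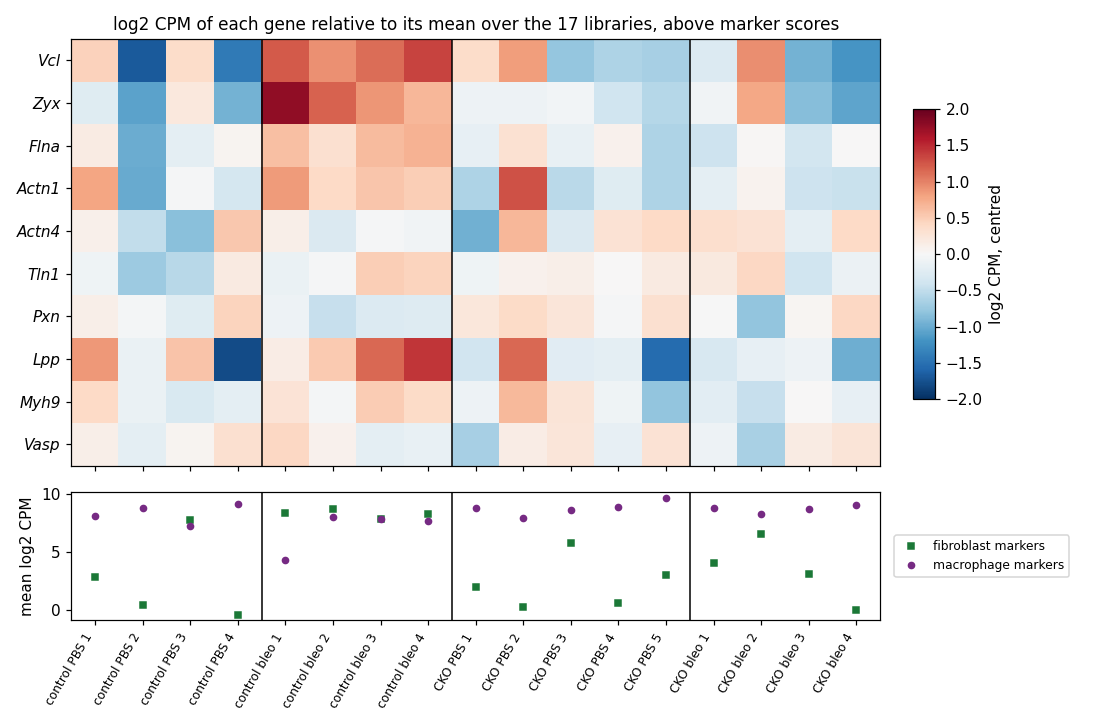
Log2 CPM of the 10 genes (rows) in the 17 libraries (columns, by group; color, difference from the gene's mean over all libraries), above the fibroblast and macrophage marker scores (mean log2 CPM). Vcl, Zyx and Flna are above their means in all 4 control bleomycin cultures, Pxn is below its mean in all 4, and the macrophage score is lowest (4.33) in control bleomycin mouse 1.

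The balance between each gene and a relative was read as the log2 ratio of their counts within a library, which does not depend on library size. Of 9 pairs in 4 comparisons, 36 tests, 5 reached 0.05 before and 0 after Benjamini-Hochberg adjustment (2-sided exact permutation tests, smallest adjusted p 0.206). Those 5 stood at p = 0.0286, the smallest that this exact test allows for 4 cultures against 4. A few pairs at that floor cannot pass the adjustment over 36 tests, so the 0 does not show that the balance was unchanged. The Actn1/Actn4 log2 ratio was 1.72, 1.66, 1.56 and 1.54 in control bleomycin and 0.45, 0.77, 0.76 and 0.14 in CKO bleomycin cultures, a difference of -1.09 (exact permutation p = 0.0286, adjusted 0.206). In PBS cultures it ranged from 0.09 to 1.79 in control and from -0.03 to 1.60 in CKO mice, so the spread among PBS cultures covered both bleomycin groups.

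Talin 2, the product of Tln2, is the talin most known from muscle and brain. The Tln1/Tln2 log2 ratio was 2.18, 3.57, 3.85 and 3.65 in control bleomycin and 6.41, 4.70, 4.63 and 5.97 in CKO bleomycin cultures, a difference of 2.12 (exact permutation p = 0.0286, adjusted 0.206). Between these groups Tln2 averaged 53.4 ± 23.3 CPM in control and 11.96 ± 7.66 CPM in CKO bleomycin cultures (log2 fold change -2.16, SE 0.76), while Tln1 differed by -0.17 (SE 0.23). In PBS cultures the log2 ratio ranged from 2.17 to 6.93 in control and from 4.84 to 7.33 in CKO mice.

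Vasp and its relatives Enah and Evl all extend actin filaments. The Vasp/Enah log2 ratio was 1.00, 0.68, 0.52 and 0.44 in control bleomycin and 2.46, 1.62, 3.42 and 6.09 in CKO bleomycin cultures (difference 2.74, exact permutation p = 0.0286, adjusted 0.206). The Vasp/Evl log2 ratio was 3.02, 0.97, 0.97 and 1.17 against -0.14, -0.77, 0.48 and -0.04 (difference -1.65, exact permutation p = 0.0286, adjusted 0.206). Both ratios separated the groups while Vasp itself did not, since Enah (77.0 ± 3.24 CPM in control and 14.8 ± 9.81 in CKO bleomycin cultures) was lower and Evl (46.1 ± 19.0 and 123 ± 21.1) higher in CKO. Their log2 fold changes were -2.38 (SE 0.99) and 1.42 (SE 0.57), with adjusted p-values of 0.223 and 0.221 from edgeR.

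Tgfb1i1 encodes Hic-5, the paxillin relative known from smooth muscle and myofibroblasts. The Pxn/Tgfb1i1 log2 ratio was -0.06, 0.03, 0.79 and 0.72 in control bleomycin and 2.77, 6.26, 1.05 and 6.78 in control PBS cultures, a difference of -3.84 (exact permutation p = 0.0286, adjusted 0.206). In CKO bleomycin cultures it was 2.83, 0.74, 4.94 and 5.79, where mouse 2 lay within the control bleomycin range. Tgfb1i1 averaged 50.6 ± 17.2 CPM in control bleomycin, 11.3 ± 14.3 in control PBS and 10.4 ± 11.5 in CKO bleomycin cultures. The lowest ratios stood in the cultures with fibroblast scores above 6, namely the control bleomycin cultures, CKO bleomycin mouse 2 and control PBS mouse 3.

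In 3 further pairs the groups overlapped after bleomycin. The Myh9/Myh10 log2 ratio, between the heavy chains of myosin IIA and IIB, was 3.65, 4.25, 4.47 and 4.15 in control and 5.8, 4.45, 6.79 and 7.86 in CKO bleomycin cultures (difference 2.09, exact permutation p = 0.0571, adjusted 0.294). Zyx/Trip6 differed by 0.47 (exact permutation p = 0.171) and Zyx/Lpp by -0.23 (exact permutation p = 0.743). In the same comparison Myh10 had a log2 fold change of -2.21 (SE 0.96) and Trip6 one of -1.79 (SE 0.71), with adjusted p-values of 0.230 and 0.220 from edgeR.

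**Figure D5:**
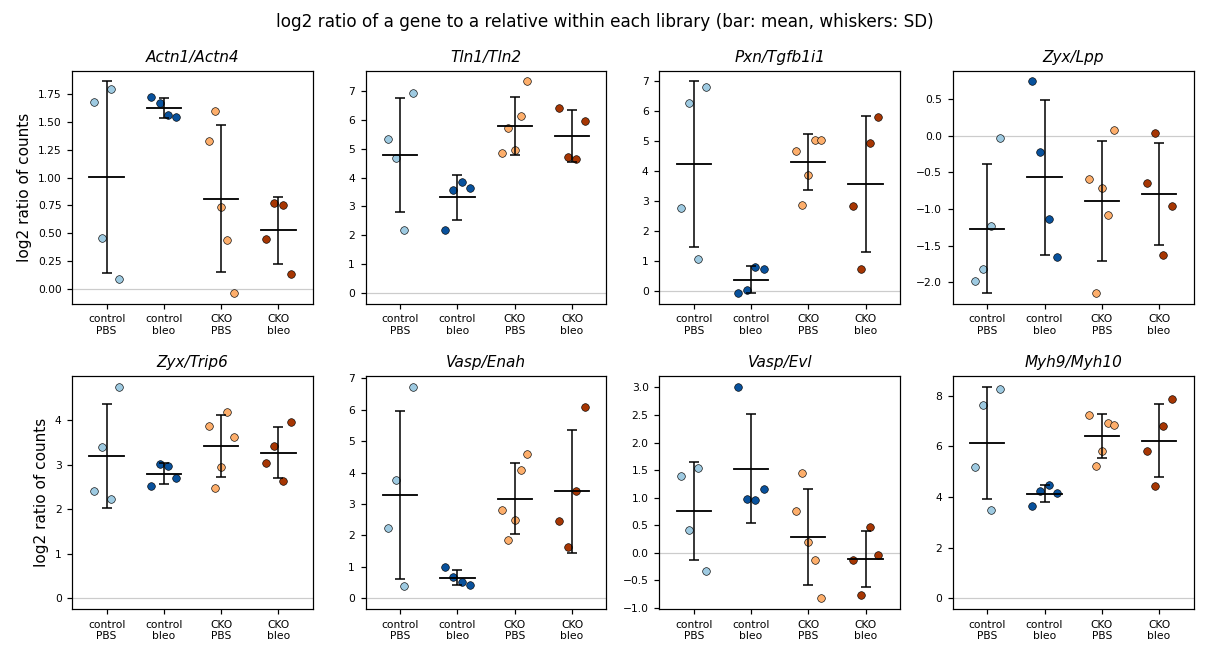
Log2 ratio of counts of a gene to a relative (vertical axes) in every library of the 4 groups (horizontal axis; bleo, bleomycin), with means (bars) and SD (whiskers). Actn1/Actn4 and Vasp/Evl are lower and Tln1/Tln2 and Vasp/Enah higher in all 4 CKO than in all 4 control bleomycin cultures, and the PBS cultures spread widely in most pairs.

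Other genes of the same machinery were read from 7 lists of 103 genes, 98 of which passed the filter. None of the 98 had an adjusted p under 0.05 in edgeR in any comparison. For CKO versus control after bleomycin 21 had an unadjusted p under 0.05 and were lower and 9 were higher, and for bleomycin versus PBS in control mice 12 were higher and 7 were lower. Over all 10481 genes, 9.18% were lower and 11% higher at that p in the first of these comparisons, and 6.28% were higher and 7.98% lower in the second. The counts of each list at that p for CKO versus control after bleomycin are of lower genes and stand beside the 9.18% of all genes, with no test of the list. The counts of genes that were lower at any p stand beside 49.3% of all genes. Of the 12 actin crosslinkers and bundlers that passed the filter, 11 were lower in CKO after bleomycin (median log2 fold change -1.35), 4 of them at an unadjusted p under 0.05, among them Synpo, synaptopodin (-2.44, SE 0.96), and Marcks (-1.22, SE 0.52). Lcp1, the plastin of white blood cells, was the exception (1.11, SE 0.54). Of the 16 zyxin-like and other LIM proteins 13 were lower (median -0.84, 5 at that p), with Csrp2 at -3.34 (SE 0.80) and Csrp1 at -1.85 (SE 0.49), while Limd1 (0.62, SE 0.21) and Lasp1 (0.23, SE 0.26) were above 0.

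Among the 17 integrin-actin linkers and activators, 12 were lower in CKO after bleomycin (median -0.80, 5 at an unadjusted p under 0.05), led by Lims2, a partner of integrin-linked kinase (-1.66, SE 0.52), and Tln2. Parvg (1.56, SE 0.70), the parvin of blood cells, and Parvb (0.93, SE 0.38) were above 0. Of the 11 actin-linked integrins 8 were lower (median -0.50, 2 at that p), with the fibronectin receptor subunits Itga5 (-1.46, SE 0.36) and Itgb1 (-1.0, SE 0.31) first, and Itga4, an integrin of leukocytes, at 1.35 (SE 0.57) and Itga2 at 0.43 (SE 1.24). Of the 13 signaling proteins of focal adhesions 8 were lower (median -0.01, 1 at that p). Ptk2, focal adhesion kinase, was at -0.98 (SE 0.52) and Tgfb1i1 at -2.28 (SE 1.06), while Ptk2b, the related kinase of blood cells and neurons, was at 1.15 (SE 0.29, adjusted p = 0.187 from edgeR) and Git2 at 0.39 (SE 0.15).

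Of the 15 genes of non-muscle myosin II and its regulators 11 were lower (median -0.36, 3 at an unadjusted p under 0.05), with the tropomyosins Tpm4 (-0.89, SE 0.29) and Tpm1 (-2.07, SE 0.87) first. The myosin light chain gene Myl12b was at 0.95 (SE 0.30) and Rhoa, the GTPase that drives contraction, at 0.15 (SE 0.15). Of the 14 genes of Ena/VASP and actin assembly 5 were lower (median 0.10, 1 at that p), with Enah and Pfn2 (-1.26, SE 0.78) lowest by p and the formin Diaph1 (1.04, SE 0.32) and Evl on the other side. Lcp1, Parvg, Itga4, Ptk2b and Evl, known from white blood cells, were above 0 in this comparison, in which the 19 macrophage markers summed to 25142 to 45777 CPM in CKO and 1433 to 21223 CPM in control cultures. The part of these cells in the differences was not tested.

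The named genes were also read for bleomycin versus PBS in control mice, a comparison that uses the same control bleomycin cultures. On the higher side were Csrp2 (2.34, SE 0.76), Csrp1 (1.44, SE 0.48), Lims2 (1.88, SE 0.52), Ilk (0.72, SE 0.31), Itga5 (1.39, SE 0.36), Itgb5 (1.10, SE 0.35), Myl9 (3.11, SE 1.37), Tpm1 (1.78, SE 0.86), Marcks (1.26, SE 0.52) and Sptan1 (0.60, SE 0.27), with adjusted p-values of 0.268 to 0.358 from edgeR. Tgfb1i1 (2.16, SE 1.05), Crkl (0.27, SE 0.14), Pfn2 (1.51, SE 0.78) and Enah (1.26, SE 0.95) were also above 0. On the lower side were Myl12b (-1.10, SE 0.30), Diaph1 (-0.90, SE 0.32), Ptk2b (-0.79, SE 0.29), Parvg (-1.56, SE 0.70), Itga4 (-1.24, SE 0.57), Lcp1 (-1.18, SE 0.54) and Git2 (-0.31, SE 0.15). Smaller or less certain values below 0 were those of Parvb, Limd1, Fblim1, Arpc2, Itga2, Rhoa and Tagln2. Medians by list ran from -0.13 (Ena/VASP and actin assembly) and -0.03 (signaling proteins) through 0.19 (myosin II), 0.32 (integrins), 0.77 (LIM proteins) and 0.87 (linkers) to 1.25 (crosslinkers and bundlers).

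Of the 10 genes, 6 share exon sequence with a gene on the opposite strand in GENCODE M21, which matters only where counting ignores strand: Vcl with Ap3m1 over 2090 bp, Actn1 with Gm47766 over 363 and Gm47767 over 88, Tln1 with Creb3 over 360, Actn4 with Capn12 over 316, Zyx with Epha1 over 236 and Lpp with Lppos over 82 bp. The libraries were stranded and the study's alignment was run in strand-specific mode.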

How the data were processed

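The authors trimmed reads with Cutadapt, aligned them to GRCm38 with HISAT2 (version 2.1.0 per the labels) and deposited StringTie-derived whole-number counts per gene, without normalization; these are computed from transcript coverage, so overlapping transcripts share them. The sources used here do not give the batch of each library, so the study's batch covariate was not used. TMM library sizes gave CPM. The filter kept genes above 10 raw CPM in at least 2 libraries (10481 of 55421) and tested with edgeR (version 4.0.16, R 4.3.3) quasi-likelihood tests, 1 mean per group over 17 libraries, with Benjamini-Hochberg adjustment at 0.05 over all genes kept. SE is the log2 fold change divided by the square root of F. Ratios used counts plus 0.5, marker scores a prior count of 2. Libraries are separate mice; replicate numbers are accession order. DESeq2 (1.42.0) and limma (3.58.1) were alternatives. The procedure was also run on simulated data, and that outcome is not reported here. The genes named are the 10, their relatives, the 2 of each list with the smallest p in each direction in both bleomycin comparisons of the report, 4 markers, Ephb4, and the most alike genes; results of some genes that this rule covers are not reported here. Marker slopes and counts at unadjusted p under alternatives were added after seeing the data. The 10 genes, the lists and the alternatives were chosen with earlier results of these data known. Between 18.1% and 35.2% of counts fell on 8 noncoding genes. Of 55421 genes, 55154 matched GENCODE M21.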

Additional observations from a re-analysis of the deposited data

Results flagged for a closer look

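In groups of 4 or 5 libraries, 4 of the 76 sets of values tested held a library farther from its group than Dixon's 95% limit allows, and chance alone would mark about 1 set in 20. CKO PBS mouse 2 had 582 CPM of Actn1, where the other 4 mice of its group had 156 to 202, and 350 CPM of Lpp, where the others had 54.4 to 137. Control bleomycin mouse 1 had a Tln1/Tln2 log2 ratio of 2.18, where the other 3 had 3.57 to 3.85, and a Vasp/Evl log2 ratio of 3.02, where the others had 0.97 to 1.17; its macrophage marker score, 4.33, was also the lowest of the 17 libraries. Without that library the genotype difference after bleomycin was 1.74 for Tln1/Tln2 and -1.15 for Vasp/Evl.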

How the results depend on the processing

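No paired analysis was possible because replicates were numbered by accession and pair no mice. Of the 10 genes, DESeq2 called 1 for bleomycin in control mice and 1 for genotype after bleomycin (in fits that called 1.58% and 3.81% of all genes), DESeq2 with the column runs called 2 and 2 (2.20% and 3.69%), and voom with weights called 0 and 6. At an unadjusted p under 0.05 in either direction the count for bleomycin in control mice (3, with 14.3% of all genes) was 1 with the number series (5.99%) or the fibroblast score (2.71%) as a covariate, and 2 to 4 with 1 library left out (7.10% to 24.8%). That for genotype after bleomycin (4, with 20.2%) was 7 with voom weights (53.4%), 2 with the number series (12.7%), 1 in number series 12 alone (12.8%), 1 with the fibroblast score (4.01%), 0 with the macrophage score (2.65%), 6 with only the groups compared (28.5%) and 2 to 5 with 1 library left out (10.0% to 23.3%). The median log2 fold change was 0.20 for bleomycin in control mice and -0.39 for the interaction with the number series as a covariate, -0.34 for genotype after bleomycin with the macrophage score, and -0.88 to -0.44 for the interaction with 1 library left out. Signs turned as follows. For bleomycin in control mice, Vasp was 0.027 with upper quartile normalization, 0.013 with filterByExpr, 0.021 with no filter, 0.20 with the number series, 0.099 with the fibroblast score and -0.13 to 0.064 with 1 library left out; Actn4 was -0.045 with the number series and -0.13 to 0.29 with 1 library left out; Pxn was 0.063 with the fibroblast score. For genotype after bleomycin, Vasp was 0.048 with voom weights, 0.018 with the macrophage score, 0.12 without the 3 libraries of doubtful sex and -0.21 to 0.058 with 1 library left out; Tln1 was 0.11 and Pxn -0.058 in number series 12 alone; Actn4 was -0.16 and Pxn -0.15 with the fibroblast score; and Zyx/Lpp was -0.59 to 0.21 with 1 library left out. For bleomycin in CKO mice, Lpp was -0.59 to 0.15 and Actn1 -0.43 to 0.27 with 1 library left out, both highest without CKO PBS mouse 2. The signs of Vcl, Zyx, Flna, Actn1, Lpp and Myh9 were kept for bleomycin in control mice and for genotype after bleomycin under every alternative run. Precision rests on 4 or 5 mice per group and a biological coefficient of variation that was 0.557 in common over all genes kept. For the 10 genes it was 0.254 (Pxn) to 0.544 (Vcl).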
